A study of Mus musculus with 24 samples.

Results

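Glutathione peroxidases, peroxiredoxins and catalase are the enzymes that remove hydrogen peroxide and organic peroxides from cells. The 10 genes described here, Gpx1, Gpx3, Gpx4, Gpx6, Prdx1, Prdx2, Prdx3, Prdx5, Prdx6 and Cat, were chosen by name from the 14407 genes of the deposited gene table. All 10 passed the filter on low values, a level of at least 1 FPKM (fragments scaled for transcript length and for the size of the library) in at least 4 libraries, as did 13127 genes in all. RNA came from the left kidney of wildtype mice. Their surgery was either sham or a unilateral ureteral obstruction (UUO), in which the ureter of 1 kidney is closed and the tubules are injured. Treatment was with vehicle or with istradefylline, which blocks the adenosine receptor encoded by Adora2a, as an intervention labelled early or late. Crossing surgery and treatment gave 6 groups of 4 libraries, 24 in all, named sham vehicle, UUO vehicle, sham early, UUO early, sham late and UUO late, and every group shared the wildtype genotype and the left kidney. The labels used here give no dose, no days of treatment or obstruction, and no age. Whether each library stands for its own mouse is not stated there. The p-values thus weigh group differences only against the spread between these libraries, which may be technical.

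Catalase breaks hydrogen peroxide down to water and oxygen inside peroxisomes, the organelles in which oxidases make it. Glutathione peroxidases reduce peroxides with glutathione, and in several of them the reactive residue is selenocysteine, an amino acid inserted at a TGA codon that otherwise ends translation. Peroxiredoxins reduce peroxides with a reactive cysteine that most of them regenerate through thioredoxin. In the kidney the cells of the proximal tubule hold many mitochondria and peroxisomes, express catalase strongly and secrete the plasma enzyme GPX3.

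The codon of the reactive residue tells the selenocysteine enzymes from the cysteine ones, so a window of 39 bases of coding sequence around it is shown for the 9 peroxidase and peroxiredoxin genes, 5′ to 3′, with that codon in capitals. The windows were read from the GENCODE M21 transcripts of GRCm38.
Gpx1: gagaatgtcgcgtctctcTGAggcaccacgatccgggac
Gpx3: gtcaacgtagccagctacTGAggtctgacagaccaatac
Gpx4: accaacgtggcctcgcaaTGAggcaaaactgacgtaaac
Gpx6: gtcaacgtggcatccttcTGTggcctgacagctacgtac
Prdx1: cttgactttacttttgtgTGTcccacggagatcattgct
Prdx2: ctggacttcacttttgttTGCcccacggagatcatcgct
Prdx3: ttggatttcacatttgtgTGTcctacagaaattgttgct
Prdx5: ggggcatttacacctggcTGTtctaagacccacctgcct
Prdx6: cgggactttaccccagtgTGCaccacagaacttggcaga
Gpx1, Gpx3 and Gpx4 carried TGA, the selenocysteine codon in this place, whereas mouse Gpx6 carried the cysteine codon TGT. The 5 peroxiredoxins carried TGT or TGC.

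The estimated depth was 7770000 to 10990000 fragments in the 16 sham and UUO vehicle libraries. In the UUO early and UUO late libraries the same estimate gave 12920000 to 24210000 but could not be settled, so no counting interval is given. Whether depth differed in these groups, and its part in their comparisons, was not tested. Differences are on the log2(FPKM + 1) scale, which understates changes of low genes, and were tested with limma with Benjamini-Hochberg adjustment over the 13127 genes. "Rose" and "fell" are said only of genes with an adjusted p below 0.05. Across all tested genes the median log2 difference of obstructed from sham kidneys was 0.32 under vehicle, 0.40 under the early and 0.49 under the late course, and changes are read against these shifts. In whole tissue, fewer cells of a type and less RNA per cell cannot be told apart.

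Most of the 10 genes were lower in obstructed kidneys. The 10 genes were chosen with earlier results of these data known, so their counts describe these genes and not their families. Under vehicle 6 of the 10 genes fell and 1 rose, where 16.7% of all tested genes fell and 50.3% rose. With the early course 7 fell and 1 rose, against 17.3% and 54.7% of all genes, and with the late course again 7 fell and 1 rose, against 16.5% and 59.0%. The median log2 difference of the 10 genes was -0.52, -0.72 and -0.78 in these comparisons. Gpx6, Cat, Prdx5, Prdx3, Prdx6 and Gpx4 fell under all 3 treatments, Gpx3 fell under both istradefylline courses, and Gpx1 and Prdx1 passed the threshold in none. Prdx2 rose in all 3, but its direction turned to lower when libraries were scaled by the median of gene ratios instead of as deposited. That scaling moved the median of all genes to between 0.02 and 0.03, with 4164 genes higher and 3952 lower under vehicle in place of 6604 and 2186, and 7, 9 and 9 of the 10 genes fell and 0 rose.

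**Figure D1:**
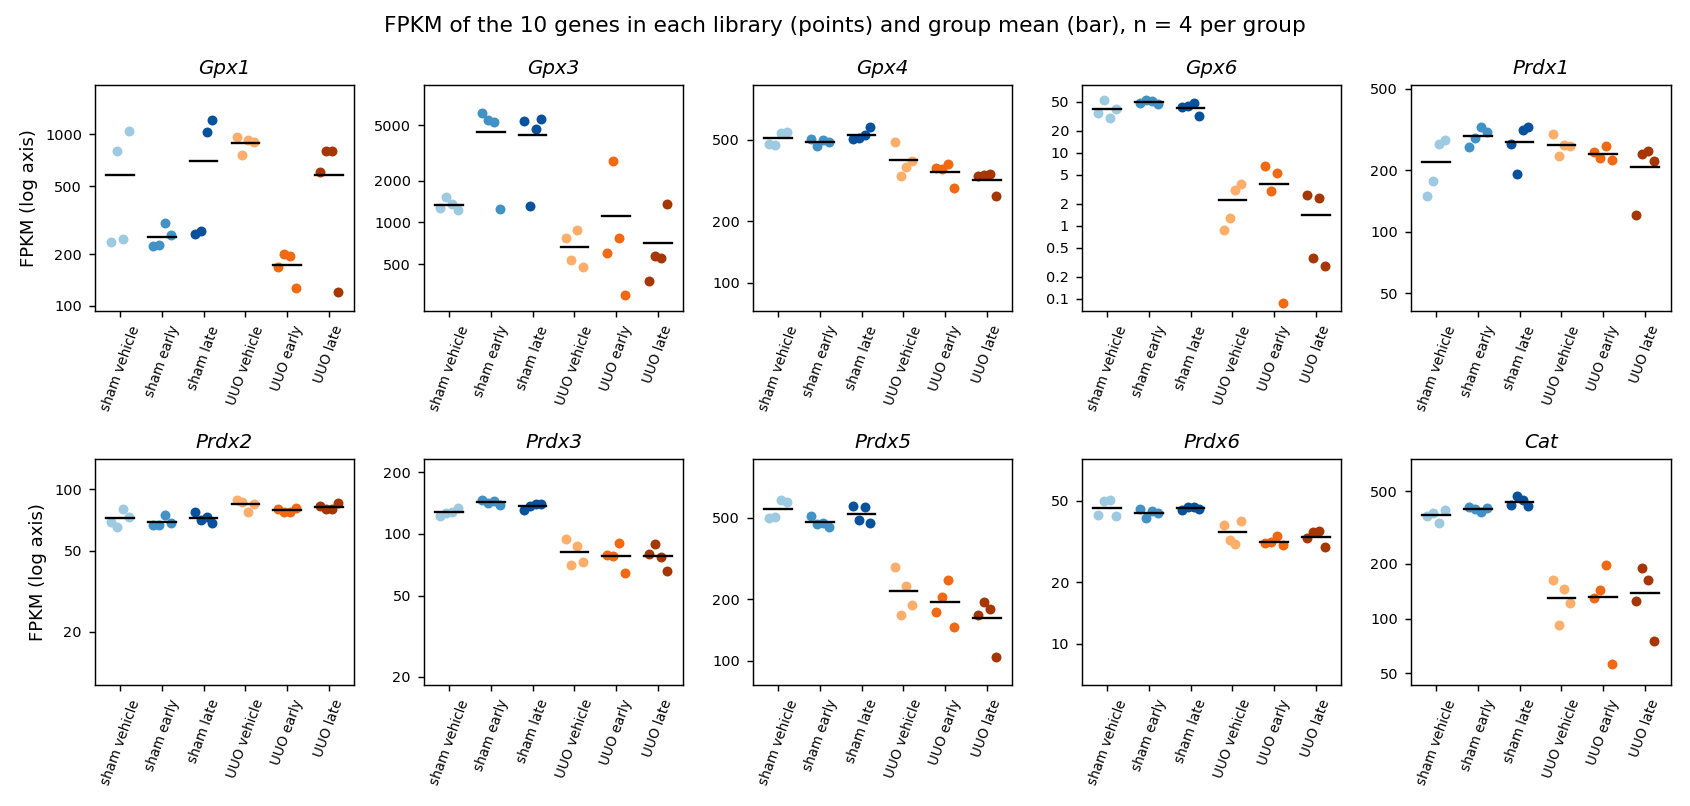
FPKM of each of the 10 genes on log axes, 1 point per library and a bar at the mean of each group of 4. Cat, Prdx3, Prdx5, Prdx6 and Gpx6 lie lower in every obstructed library than in any sham library, while Gpx1 and Gpx3 are spread over separate levels inside several groups.

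Catalase RNA fell to between 31.4% and 35.4% of the sham mean. Cat (ENSMUSG00000027187.10, GRCm38 chr2:103453849-103485160, minus strand) measured 365, 381, 336 and 393 FPKM in the sham vehicle libraries and 163, 92.2, 145 and 121 in the UUO vehicle libraries. The groups did not overlap. The mean went from 369 ± 24.9 to 130.4 ± 30.7 FPKM (SD, n = 4 each), a log2 change of -1.52 (SE 0.28, limma adjusted p = 8.26e-05). Under the early course the sham libraries measured 409, 402, 385 and 403 FPKM and the obstructed ones 129, 144, 197 and 56.1. Under the late course they measured 419, 472, 447 and 416 against 124, 189, 163 and 75.0 FPKM. Again no obstructed library reached a sham one, and the log2 changes were -1.73 (limma adjusted p = 1.55e-05) and -1.74 (limma adjusted p = 1.2e-05). The UUO early library 4 and the UUO late library 4 held the least Cat of all 24.

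Those same libraries held the least proximal tubule marker RNA. The summed level of 13 proximal tubule markers was 2649 to 3819 FPKM in the 12 sham libraries and 206 to 1465 in the 12 obstructed ones, with 206 in UUO early library 4 and 313 in UUO late library 4. Of these 13 markers, 12 fell under vehicle and all 13 under each course, and none of them was listed at 0 in a group. The 10 markers of the loop of Henle, distal tubule and collecting duct fell in 10, 9 and 9 cases, with sums of 1029 to 1426 FPKM in sham and 370 to 1051 in obstructed libraries. The ranges overlapped through the highest obstructed sum, in UUO early library 4. That library held 724 FPKM of Pvalb alone, where sham libraries held 27.7 to 46.6. Without Pvalb, left out with that value known, the sums were 1001 to 1394 FPKM in sham and 326 to 813 in obstructed libraries. Those sums did not overlap. All 10 macrophage markers rose under each treatment, from sums of 44.3 to 75.7 FPKM to 1119 to 3817, and all 8 fibroblast markers rose, from 10.8 to 27.0 FPKM to 213 to 847. The T cell markers rose in 6, 5 and 6 of 6 cases, and 1 of 6 erythroid markers fell in each comparison. Under vehicle that marker was Slc4a1, which also counts among the 10 loop, distal tubule and collecting duct markers. The part of these cell types in the changes of the 10 genes was not tested.

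**Figure D2:**
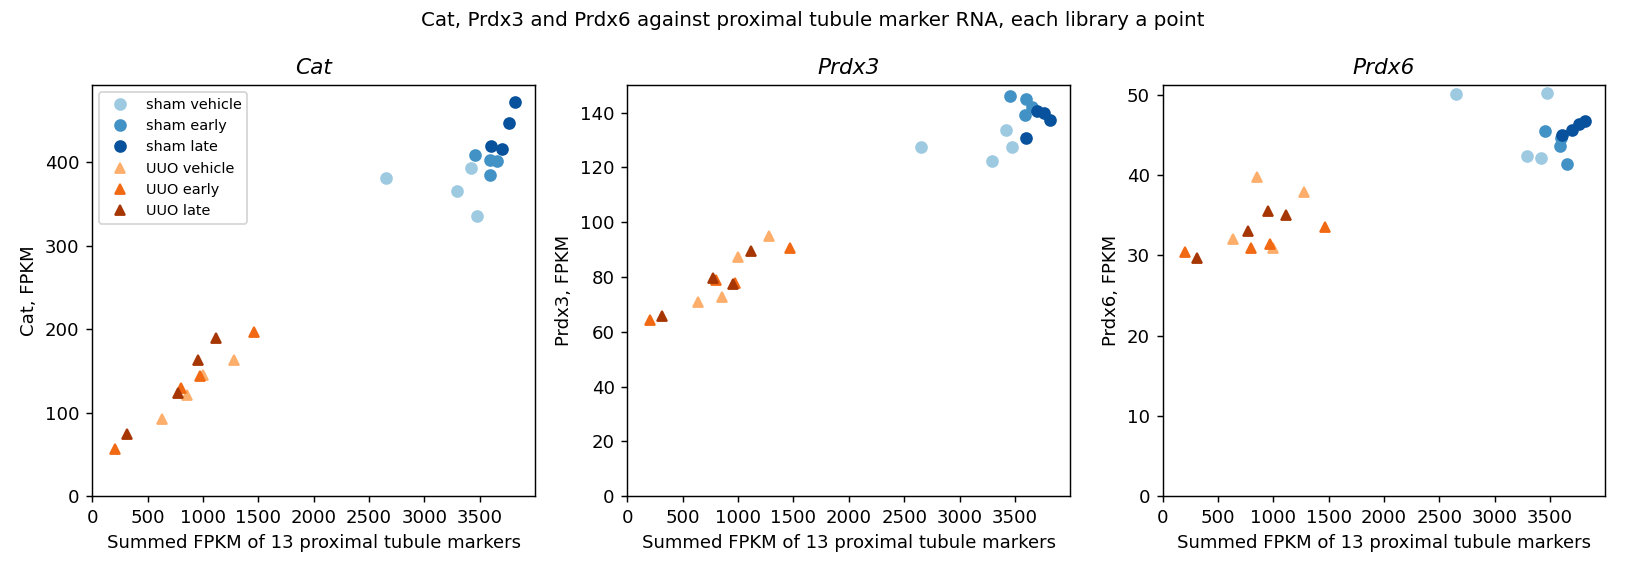
FPKM of Cat, Prdx3 and Prdx6 against the summed FPKM of 13 proximal tubule markers, 1 point per library, with circles for sham and triangles for UUO. Sham libraries lie at sums of 2649 to 3819 FPKM and obstructed ones at 206 to 1465, and Cat reaches its lowest level, 56.1 FPKM, where the marker sum is lowest.

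The mitochondrial peroxiredoxins fell too. PRDX3 is the main peroxide-removing enzyme of the mitochondrial matrix. Prdx3 (ENSMUSG00000024997.7, chr19:60864051-60874556, minus strand) measured 122, 127.3, 127.4 and 134 FPKM in sham vehicle and 94.9, 70.9, 87.2 and 72.6 in UUO vehicle libraries. The sham libraries lay close together and the obstructed ones below them, with no overlap. Its log2 change was -0.65 (SE 0.10, limma adjusted p = 1.34e-05). The early course gave 146, 142, 145 and 139 FPKM in sham and 78.7, 77.7, 90.5 and 64.2 in obstructed kidneys, a log2 change of -0.88 (limma adjusted p = 2.26e-07). The late course gave 131, 137, 139.8 and 140.4 against 79.5, 89.5, 77.4 and 65.6 FPKM, a log2 change of -0.81 (limma adjusted p = 5.17e-07). Neither pair of groups overlapped, and the lowest obstructed library was again number 4 in each course.

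PRDX5 works in mitochondria, peroxisomes and the cytosol. Prdx5 (ENSMUSG00000024953.16, chr19:6906697-6910106, minus strand) measured 499.7, 503, 609 and 595 FPKM in sham vehicle and 288, 168, 233 and 188 in UUO vehicle libraries. No obstructed library came near a sham one. The log2 change was -1.35 (SE 0.18, limma adjusted p = 2.01e-06), and it was -1.31 under the early and -1.73 under the late course (limma adjusted p = 2.21e-06 and 4.42e-08). UUO late libraries measured 168, 193, 179 and 104 FPKM, a mean 73.6% of the UUO vehicle mean, and the groups overlapped. That difference had an unadjusted p of 0.0234 and did not pass the threshold (log2 difference -0.45, 95% interval -0.83 to -0.07, limma adjusted p = 0.422). Prdx5 overlaps Trmt112 on the other strand over 409 bases. Trmt112 was listed at 29.2 to 43.9 FPKM, and whether the counting used strand is not given in the sources used here.

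PRDX6 is the 1-cysteine peroxiredoxin, which also has phospholipase activity. Prdx6 (ENSMUSG00000026701.15, chr1:161240112-161251219, minus strand) measured 42.4, 50.03, 50.2 and 42.1 FPKM in sham vehicle and 37.9, 32.0, 30.8 and 39.7 in UUO vehicle libraries, without overlap. The changes were small and similar, -0.39, -0.46 and -0.45 on the log2 scale under vehicle, early and late course (SE 0.08, limma adjusted p = 0.000362, 5.11e-05 and 4.84e-05). Obstructed means were 76.1%, 72.2% and 72.5% of the sham means. A protein-coding copy, Prdx6b, matches its transcript at 90.1% over 1444 bases, so some reads of either could have been counted for the other.

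Prdx1 and Prdx2, which encode typical peroxiredoxins of the cytosol, did not fall in the values as deposited. Prdx1 (ENSMUSG00000028691.12, chr4:116685544-116700822, plus strand) measured 149, 177, 270.01 and 280.1 FPKM in sham vehicle and 299.8, 235, 265 and 264 in UUO vehicle libraries. The groups overlapped, and the sham vehicle libraries covered a wider range than the obstructed ones. The log2 difference was 0.32 (95% interval -0.13 to 0.77, limma adjusted p = 0.193). It was -0.29 under the early course (95% interval -0.74 to 0.16, limma adjusted p = 0.235) and -0.42 under the late course (95% interval -0.87 to 0.03, limma adjusted p = 0.0832). Scaled by the median of gene ratios, Prdx1 was lower under the early and late courses, with log2 changes of -0.77 and -1.03 (limma adjusted p = 0.00595 and 0.000517). Prdx1 has 3 processed pseudogenes of over 90% identity.

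Prdx2 (ENSMUSG00000005161.15, chr8:84969587-84974834, plus strand) had the smallest ratio of highest to lowest library among the 10, 1.35, from 65.0 to 88.03 FPKM over the 24 libraries. It measured 69.04, 65.0, 80.1 and 73.3 FPKM in sham vehicle and 88.0, 86.9, 77.0 and 84.9 in UUO vehicle libraries. The groups overlapped through the highest sham and the lowest obstructed library. The log2 change was 0.23 (SE 0.07, limma adjusted p = 0.00572), and with the median of gene ratios as scaling it was -0.16 (limma adjusted p = 0.0786). Under the early course the sham libraries held 66.9 to 74.7 and the obstructed ones 77.1 to 80.6 FPKM, and under the late course 68.0 to 77.1 and 80.1 to 85.2, without overlap. These log2 changes of 0.19 and 0.18 (limma adjusted p = 0.0182 and 0.0195) became -0.29 and -0.42 under that other scaling (limma adjusted p = 0.00236 and 5.99e-05). All lay below the median shift of all genes. Prdx2 overlaps Junb and Rnaseh2a on the other strand over 351 and 181 bases, and has 2 processed pseudogenes of over 90% identity. Junb was listed at 2.73 to 89.2 FPKM. Red blood cells are rich in PRDX2, and the summed level of 6 erythroid markers was 379 to 1031 FPKM in sham and 282 to 968 in obstructed libraries.

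**Figure D3:**
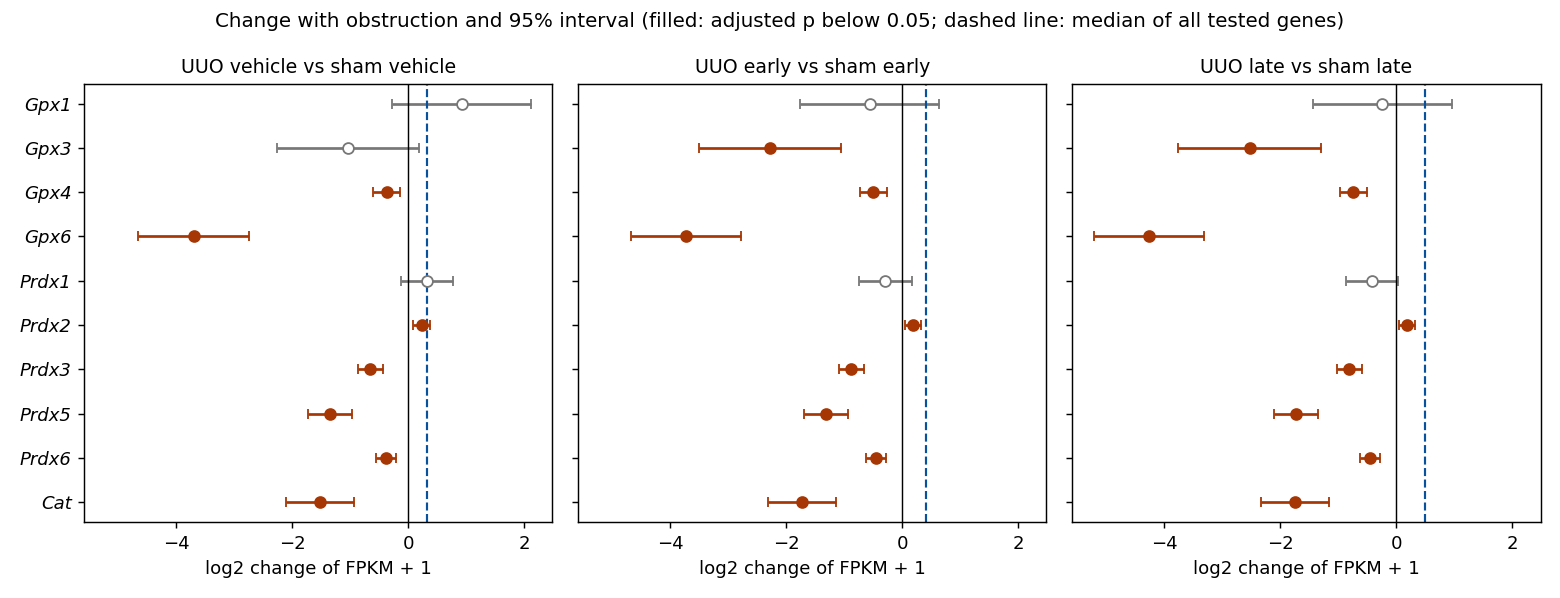
Log2 difference of FPKM + 1 between obstructed and sham kidneys for each gene under vehicle, early and late course, with 95% intervals from limma. Filled points passed an adjusted p of 0.05, and the dashed line marks the median of all tested genes, 0.32, 0.40 and 0.49. Gpx6 lies farthest left in all panels, and Prdx2 is the single filled point right of 0, a direction that turned under median-of-ratios scaling.

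The glutathione peroxidases spread from near loss to no call. Gpx6 (ENSMUSG00000004341.8, chr13:21312125-21319624, plus strand), known in the mouse mainly from olfactory tissue, measured 34.4, 52.5, 30.2 and 39.9 FPKM in sham vehicle and 0.876, 1.29, 3.13 and 3.74 in UUO vehicle libraries. The highest obstructed library lay far below the lowest sham library. The mean fell from 39.3 ± 9.70 to 2.26 ± 1.39 FPKM (SD, n = 4 each), to 5.75% of the sham level, with a log2 change of -3.70 (SE 0.46, limma adjusted p = 6.33e-07). Under the early course it measured 48.3, 52.9, 51.2 and 46.1 FPKM in sham and 6.59, 3.02, 5.29 and 0.0877 in obstructed libraries. Under the late course it measured 41.6, 43.6, 47.3 and 31.4 against 2.66, 0.361, 2.39 and 0.280 FPKM. The groups lay apart in both, with log2 changes of -3.73 and -4.27 (limma adjusted p = 4.25e-07 and 5.35e-08). The genes most like Gpx6 across the 24 libraries, by Pearson correlation of log2(FPKM + 1), were Egf, Tmem207 and Wfdc15b (r = 0.986, 0.986 and 0.983). These correlations span the gap between sham and obstructed kidneys.

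GPX4 reduces lipid peroxides in membranes and restrains ferroptosis, a form of cell death driven by lipid peroxidation. Gpx4 (ENSMUSG00000075706.10, chr10:80047166-80056439, plus strand) measured 479, 475, 542 and 546 FPKM in sham vehicle and 490.4, 333, 371 and 395 in UUO vehicle libraries. The groups overlapped through UUO vehicle library 1. The log2 change was -0.37 (SE 0.11, limma adjusted p = 0.00565), and it did not pass when libraries were scaled to equal sums (-0.23, limma adjusted p = 0.0615). Under the early course the obstructed libraries held 291 to 381 and the sham ones 469 to 504 FPKM, and under the late course 265 to 342 and 505 to 581, without overlap. The log2 changes were -0.50 and -0.74 (limma adjusted p = 0.000449 and 4.59e-06). A near copy, Gpx4-ps2, matches its transcript at 99.7% over 762 bases, so reads of the copy that miss the few differing bases cannot be told from its own.

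GPX3, the glutathione peroxidase of plasma, is made mainly by the proximal tubule. Gpx3 (ENSMUSG00000018339.11, chr11:54902453-54910377, plus strand) had the highest level of the 10 genes, rank 11 of all genes in sham kidneys. It measured 1268, 1529.8, 1349 and 1221 FPKM in sham vehicle and 774, 540.3, 888 and 475 in UUO vehicle libraries. The groups did not overlap, but the log2 difference of -1.04 did not pass with the spread shared by all groups (95% interval -2.27 to 0.19, limma adjusted p = 0.125), and did when only these groups were fitted (limma adjusted p = 0.00171).

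Under the drug courses Gpx3 sat at separate levels within groups. Sham early libraries measured 6071, 5399, 5276 and 1242 FPKM and sham late libraries 5379, 1312, 4714 and 5539. In each of these groups 3 libraries stood above all sham vehicle libraries and 1 beside them. UUO early libraries measured 599, 2755, 769 and 299.7 FPKM and UUO late libraries 378, 579, 552 and 1359. The highest obstructed library exceeded the lowest sham library in both courses. Gpx3 fell with a log2 change of -2.28 under the early (SE 0.59, limma adjusted p = 0.00171) and -2.53 under the late course (limma adjusted p = 0.000632). Leaving out any 1 library kept the call, with log2 changes of -2.89 to -1.82 and -3.03 to -2.28. Without sham early library 4 the early value was -2.82 and without UUO early library 2 it was -2.89.

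The gap between the Gpx3 levels was unusual for sham kidneys. From 1530 FPKM the next sham library up measured 4714, a ratio of 3.08, and 0.769% of tested genes had a gap as large within the 12 sham libraries. Sham early and sham late means were 3.35 and 3.16 times the sham vehicle mean. Neither difference passed the threshold (log2 1.52 and 1.46, unadjusted p = 0.0181 and 0.0221, limma adjusted p = 0.478 and 0.219). The proximal tubule marker sum of sham early library 4, 3589 FPKM, lay within the 3457 to 3653 of its group. The minor transcript Gpx3-203 was lower where Gpx3 was high among sham kidneys. It measured 37.4 to 89.3 FPKM in the 6 sham libraries with at least 4714 FPKM of Gpx3 and 130 to 363 in the 6 with at most 1530, among them sham early library 4 with 149.6 and sham late library 2 with 130.4. It fell with obstruction under vehicle (log2 -2.55, limma adjusted p = 0.00113 over 21787 transcripts, of which 10.1% fell), while the main transcript Gpx3-201 did not pass (log2 -0.97, limma adjusted p = 0.241).

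GPX1 is the most widespread glutathione peroxidase, in cytosol and mitochondria. Gpx1 (ENSMUSG00000063856.7, chr9:108338903-108340343, plus strand) measured 234, 797, 246 and 1049.7 FPKM in sham vehicle and 973, 759.5, 930.03 and 903 in UUO vehicle libraries. Of the sham vehicle libraries 2 lay beside the obstructed ones and 2 far below. Sham early libraries measured 224, 226, 303 and 259.9 FPKM and UUO early libraries 168, 201, 196 and 128. All 8 were low, and the obstructed ones lay below the sham ones without overlap. Sham late libraries measured 262, 275, 1033 and 1216 FPKM and UUO late libraries 603, 799, 799.9 and 121, so high and low libraries occurred in both groups. The log2 differences with obstruction were 0.92 (95% interval -0.28 to 2.12), -0.56 (-1.76 to 0.64) and -0.24 (-1.44 to 0.96) under vehicle, early and late course, and none passed (limma adjusted p = 0.165, 0.393 and 0.715).

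Across the 24 libraries Gpx1 held either at least 602.6 FPKM, in 11 libraries, or at most 302.8, in 13. Gaps as large, 2.63-fold among sham and 3.00-fold among obstructed libraries, occurred in 1.26% and 2.07% of tested genes. The minor transcript Gpx1-204 was listed at 0 in each of those 11 libraries and at 0.674 to 3.54 FPKM in each of the 13. No annotated gene overlaps Gpx1 or Gpx3, and no transcript of another gene matched theirs at 90% identity over 200 bases. The FPKM of a gene depends on how fragments were assigned to its transcripts, and the part of that step in the levels of Gpx1 and Gpx3, and so in their differences between groups, was not tested. The high and low sham libraries were partly the same for both genes. Sham late libraries 3 and 4 were high in both, and sham vehicle libraries 1 and 3, sham early library 4 and sham late library 2 were low in both. Sham vehicle libraries 2 and 4 were high in Gpx1 alone, and sham early libraries 1 to 3 and sham late library 1 were high in Gpx3 alone.

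**Figure D4:**
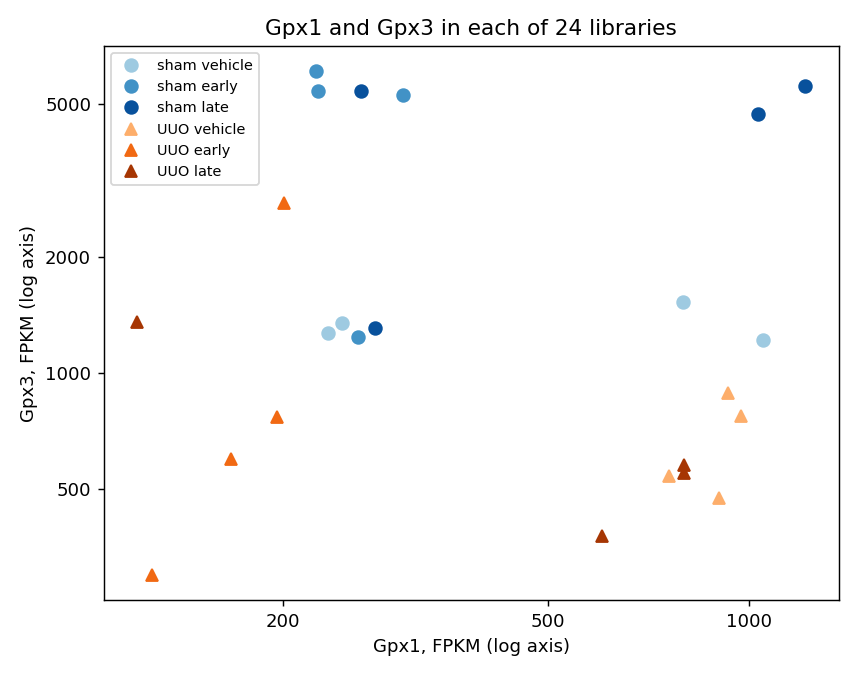
Gpx1 against Gpx3, both in FPKM on log axes, 1 point per library, with circles for sham and triangles for UUO. Gpx1 leaves a gap between 302.8 and 602.6 FPKM, and Gpx3 leaves 1 among sham libraries between 1530 and 4714.

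Between obstructed kidneys with and without istradefylline no member passed the threshold. In UUO early against UUO vehicle 0 of 10 were called, against 0.0152% of all genes, in UUO late against UUO vehicle 0, against 0.137%, and in UUO early against UUO late 0, against 0.0305%. Gpx1 came closest. Its UUO early libraries, 128 to 201 FPKM, lay below all UUO vehicle libraries, 759.5 to 973, a mean of 19.4% and a log2 difference of -2.37 (SE 0.58, unadjusted p = 0.000501, limma adjusted p = 0.28). It passed when only those groups were fitted (limma adjusted p = 0.00186). The sham early libraries, at 224 to 303 FPKM, also lay at the low level, and the interaction of early course and surgery did not pass for Gpx1 (log2 -1.48, limma adjusted p = 0.865). In UUO late against UUO vehicle, Gpx4 and Prdx5 had unadjusted p of 0.0114 and 0.0234 (limma adjusted p = 0.349 and 0.422), with log2 differences of -0.31 and -0.45. UUO late library 4 was the lowest of its group in both genes. For UUO early against UUO late only Gpx1 had an unadjusted p below 0.05 (0.0207, log2 -1.44, limma adjusted p = 0.534).

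Among sham kidneys 0 members passed in sham early against sham vehicle, where 0.00762% of all genes did, and 0 in sham late against sham vehicle, where 1.42% did. Besides Gpx3, Prdx1 had an unadjusted p of 0.0395 in sham early (log2 0.48, limma adjusted p = 0.571). In the interactions of course and surgery 0 members passed, against 0.00762% of genes for the early and 0.0305% for the late course. For the late course Prdx1 (log2 -0.75, unadjusted p = 0.024, limma adjusted p = 0.263) and Gpx4 (log2 -0.37, unadjusted p = 0.0297, limma adjusted p = 0.281) had the smallest p. The intervals of the UUO late against UUO vehicle differences were -0.56 to 0.62 for Cat and -0.27 to 0.16 for Prdx3 on the log2 scale.

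The order of the genes by mean level differed between sham and obstructed kidneys. By mean FPKM, which is per length, the 12 sham libraries ranked Gpx3 (3358), Prdx5 (517), Gpx4 (510.7), Gpx1 (510.5), Cat (402), Prdx1 (263), Prdx3 (136), Prdx2 (71.1), Prdx6 (45.3) and Gpx6 (43.3). Neighbours overlapped from Prdx5 through Cat and between Prdx6 and Gpx6, and the other neighbours lay apart. In the 12 obstructed libraries the order was Gpx3 (831), Gpx1 (548), Gpx4 (355), Prdx1 (238), Prdx5 (191), Cat (133), Prdx2 (81.7), Prdx3 (79.1), Prdx6 (33.3) and Gpx6 (2.48). Prdx6 and Gpx6 alone stood apart from their neighbours there. The place of Gpx1 differed between the obstructed groups. Its mean of 891 FPKM in UUO vehicle was above that of Gpx3, 669, with overlapping libraries, and its mean of 173 in UUO early was below those of Gpx4, 349, Prdx1, 241, and Prdx5, 194. Together the 10 genes held 0.919 to 2.42% of the summed FPKM of a sham library and 0.416 to 1.32% of that of an obstructed one.

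The members differed in which genes they tracked. By Pearson correlation of log2(FPKM + 1) over 24 libraries, which spans the difference between sham and obstructed kidneys, the genes most like Prdx3 were Ghitm, Hspd1 and Pmpcb (r = 0.992, 0.99 and 0.988). Those most like Cat were Aldh8a1, Cyp2j11 and Sord (0.993, 0.992 and 0.991). Those most like Prdx5 were Trap1, Gatb and Atp5d (0.981, 0.98 and 0.98), for Prdx6 Ndufs7, Etfb and Mrpl12 (0.97, 0.95 and 0.945), and for Gpx4 Uqcrq, Tmem205 and H2afj (0.969, 0.963 and 0.961). Prdx2 was most like Prr3, Tradd and Timm10b (0.919, 0.914 and 0.901). The likeness was weaker for Gpx3, with Atg13, Vti1a and Dglucy (0.86, 0.826 and 0.823), for Gpx1, with Psmb3, Dad1 and Dhrs7b (0.705, 0.689 and 0.672), and for Prdx1, with Nek7, Tgds and Cldn2 (0.665, 0.646 and 0.636).

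Other tested genes of these families did not fall with obstruction. Gpx7, Gpx8 and Prdx4 rose under all 3 treatments in the values as deposited. With Gpx2, the fourth that was tested, 4, 4 and 3 rose under vehicle, early and late course. Under median-of-ratios scaling 3, 3 and 2 did, and 4 in each when scaled to equal sums. Of all tested genes 50.3%, 54.7% and 59.0% rose as deposited, and so few genes cannot be set apart from these shares by count. Gpx7 and Gpx8, peroxidases of the endoplasmic reticulum, rose from 2.14 ± 0.510 to 20.8 ± 5.72 and from 15.2 ± 0.970 to 59.0 ± 12.9 FPKM under vehicle (SD, n = 4 each, log2 2.77 and 1.86, limma adjusted p = 1.62e-09 and 7.52e-09). Prdx4, the peroxiredoxin of the endoplasmic reticulum, rose by 0.57 on the log2 scale (limma adjusted p = 0.000526), where the median of all tested genes was 0.32. Gpx2, the gastrointestinal form, was listed at 0 in sham vehicle and averaged 0.922 FPKM in UUO vehicle libraries (limma adjusted p = 0.0347). It passed the filter on low values through the obstructed libraries alone, which favours a difference. Its rises under vehicle and the early course thus add nothing to the count, and under the late course it did not pass.

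Genes of the glutathione synthesis and recycling list, which also holds breakdown genes, mostly fell, and the thioredoxin genes went both ways. Of 14 tested genes of glutathione synthesis and recycling, 9 fell under vehicle, 9 under the early and 12 under the late course, with 0, 1 and 0 rising and median log2 differences of -0.78, -0.67 and -1.02. Chac2, Gss, Anpep and Ggct led the vehicle comparison. Gss, which joins glycine to complete glutathione, fell from 72.6 to 30.3 FPKM (log2 -1.24, SE 0.19, limma adjusted p = 7.87e-06). Chac2, which degrades glutathione, fell by 1.40 on the log2 scale (limma adjusted p = 1.46e-06), Anpep, a peptidase of the brush border, by 1.03 (limma adjusted p = 1.7e-05) and Ggct, which acts in glutathione breakdown, by 1.17 (limma adjusted p = 0.000174). The thioredoxin and sulfiredoxin list split, with 5 higher and 3 lower of 14 under vehicle and 4 and 4 under each course. Of all tested genes 50.3% rose and 16.7% fell under vehicle, shares to be read beside each list here and below. Sesn3, Nxn and Sesn1 rose by 1.02, 1.55 and 1.06 on the log2 scale under vehicle, and Txnip, which binds thioredoxin and restrains it, by 0.97 (limma adjusted p = 4.21e-08, 1.87e-07, 1.33e-05 and 0.000407).

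Sources of hydrogen peroxide moved in both directions. All 3 superoxide dismutases, which turn superoxide into hydrogen peroxide, fell under each treatment, and under vehicle Sod1 went from 1321 to 568 FPKM (log2 -1.24, limma adjusted p = 4.85e-05), Sod2 from 77.1 to 31.5 (log2 -1.28, limma adjusted p = 1.72e-08) and Sod3 from 171 to 90.1 (log2 -0.91, limma adjusted p = 0.0064). Of 17 oxidases, 6 rose and 9 fell under vehicle, 6 and 10 under the early and 6 and 9 under the late course. Cybb, Ncf1 and Ncf4, which had the smallest p, are subunits of the phagocyte NADPH oxidase. They rose by 2.77, 3.08 and 2.75 on the log2 scale under vehicle (limma adjusted p = 7.71e-10, 4.58e-09 and 4.24e-08), in the same libraries as the macrophage markers, whose part was not tested.

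In the values as deposited, peroxisome genes were lower where they changed. Of 19 tested, 14, 13 and 12 fell and 0 rose under vehicle, early and late course, with medians of -0.53, -0.59 and -0.51. Scaled to equal sums, 13, 12 and 11 fell and 1, 0 and 1 rose. Pex5, the receptor that carries catalase and other proteins into peroxisomes, fell by 0.57 on the log2 scale under vehicle (limma adjusted p = 9.67e-06). The membrane proteins Pxmp2 and Abcd3 fell by 1.53 and 0.97 (limma adjusted p = 2.01e-05 and 7.73e-05), and the import receptor Pex7 by 0.58 (limma adjusted p = 2.7e-05). Of 10 genes of selenoprotein synthesis and selenium supply 5, 6 and 6 fell and 0, 0 and 1 rose. Under median-of-ratios scaling 8, 9 and 8 fell and 0 rose, and scaled to equal sums 4, 6 and 5 fell and 0, 0 and 1 rose. Sephs2, which makes the selenium donor, went from 188 to 81.0 FPKM under vehicle (log2 -1.24, limma adjusted p = 3.85e-05), and Lrp2, the proximal tubule receptor that takes up selenoprotein P, from 74.4 to 20.9 (log2 -1.80, limma adjusted p = 0.000112). Selenbp1 and Selenop fell by 1.77 and 0.46 on the log2 scale (limma adjusted p = 0.00012 and 0.00317).

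Selenoproteins outside the peroxidase family did not move as 1 group. Of 14, 3 rose and 5 fell under vehicle and 4 rose and 4 fell under each course. Selenon, an endoplasmic reticulum protein, rose from 1.69 ± 0.211 to 15.2 ± 2.67 FPKM under vehicle (SD, n = 4 each, log2 2.58, limma adjusted p = 3.17e-12), and Selenow from 77.4 ± 10.2 to 286 ± 44.9 (log2 1.87, limma adjusted p = 4.78e-08). Selenoh rose by 1.11 on the log2 scale (limma adjusted p = 2.49e-07), and Selenoo, a mitochondrial protein, fell by 0.91 (limma adjusted p = 9.71e-06). Under median-of-ratios scaling 3 rose and 6, 6 and 9 fell, and the thioredoxin and sulfiredoxin list turned to 4, 4 and 3 higher and 6, 7 and 8 lower under vehicle, early and late course. Scaling to equal sums moved both lists the other way. It gave 4, 6 and 4 of these selenoproteins higher and 4, 4 and 3 lower. For the thioredoxin and sulfiredoxin list it gave 5, 6 and 7 higher and 1, 4 and 2 lower.

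**Figure D5:**
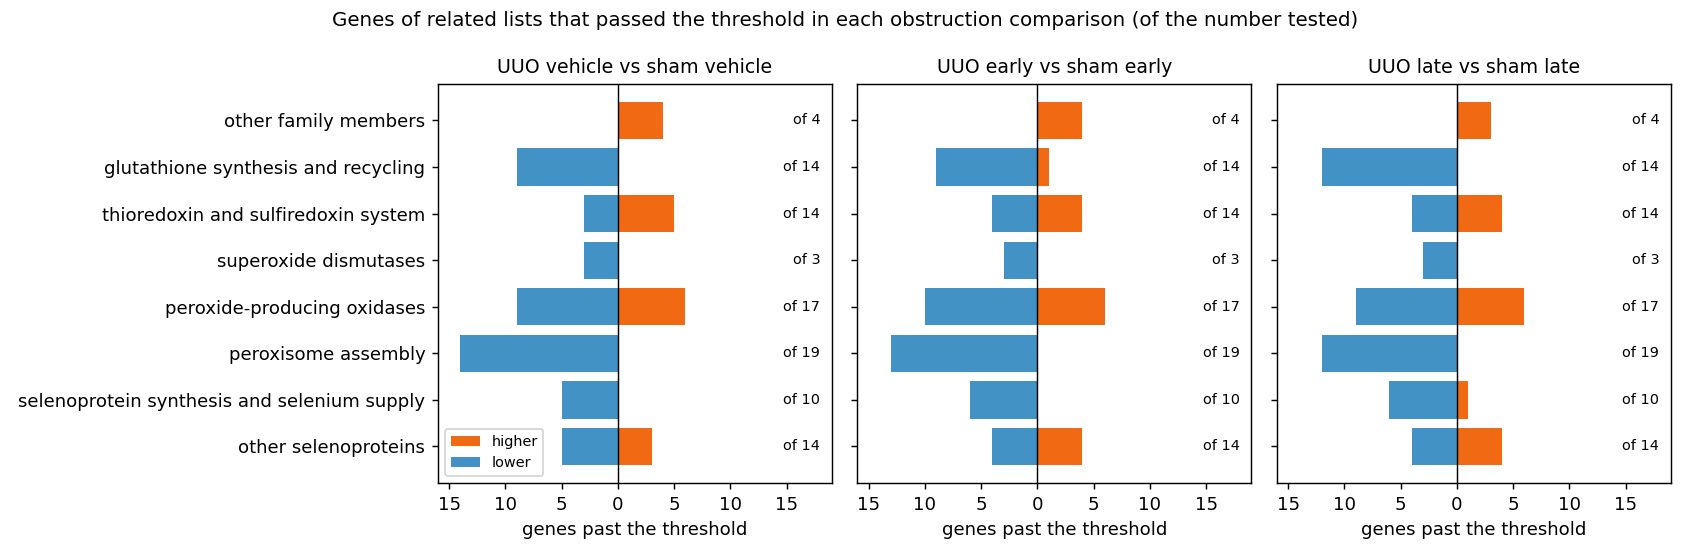
Number of genes of each related list that rose (right) or fell (left) past an adjusted p of 0.05 in each obstruction comparison, with the number tested at the right. Glutathione, peroxisome and selenium supply genes lie mostly on the left, where 9 of 14, 14 of 19 and 5 of 10 fell under vehicle. The other family members, Gpx2 included, lie on the right. Of all tested genes 16.7% fell and 50.3% rose under vehicle.

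The 12 promoter windows of the members, several of them from Gpx4, were too few to set their motif counts apart from all promoters. RefSeq promoter windows of GRCm38.p6, from 250 bases before to 50 after the start, were found for 9 of the 10 genes, 12 windows in all. The core of the antioxidant response element, TGACNNNGC on either strand, matched in 1 window, that of Prdx1 (chr4:116685349-116685648, plus strand), as GCTGAGTCA, its reverse complement, at position -133 from the start. Of 32851 promoter windows 12.4% held a match. The direct repeat of AGGTCA with 1 base between the copies, on either strand, bound by peroxisome proliferator-activated receptors, matched in 0 of the 12 and in 0.0396% of all windows.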

How the data were processed

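Total RNA of left kidneys was extracted with Trizol and made into stranded libraries, per the labels' protocols. The submitters' processing notes name cutadapt, HISAT2, StringTie and the build GRCm38, with no versions. The authors deposited FPKM values per gene and per transcript, 1 column for each of 24 libraries, per the file headers, and every gene reaches a mean of 0.5002 FPKM in some group. One emptied line of the tables is not used here. Reads were not recounted, so the strand setting and the sharing of reads between copies are the authors'.

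Genes with at least 1 FPKM in at least 4 libraries, 13127 of 14407, were fitted as log2(FPKM + 1) with limma 3.58.1 in R 4.3.3, with a mean for each group, leaving 18 residual degrees of freedom, and variances moderated along their trend with mean level. Tests were two-sided, and p-values were adjusted by Benjamini-Hochberg over the tested genes of each of 10 comparisons, with a threshold of 0.05. The fit was tested on simulated data. Groups come from the labels, and numbers of vehicle libraries from the column names of the tables. The members and gene lists were chosen with earlier results of these data known. Named are the 10 members, up to 4 genes per list with the smallest p in UUO vehicle against sham vehicle, and the 3 genes most correlated with each member, predicted genes aside; 1 gene that this rule names is not reported here. The 21787 tested transcripts were fitted alike. Near copies are other transcripts matching by blastn at 90% identity over 200 bases. The alternatives were a pseudocount of 0.1, no filter, a filter at 5 FPKM, scaling to equal sums or by the median of gene ratios, no trend, only the groups compared, a replicate block, and leaving out each library.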

Additional observations from a re-analysis of the deposited data

Results flagged for a closer look

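Of 60 sets of 4 libraries, 1 for each gene and group, 3 held a library far from the others by Dixon's test, and chance alone sets apart about 1 in 20. Gpx3 in sham early library 4 measured 1242 FPKM, where the other 3 lay between 5276 and 6071. Gpx4 in UUO late library 4 measured 265.1 FPKM, below the 332.6 to 342.2 of the others, and this library also held the lowest Prdx3, Prdx5, Prdx6 and Cat of its group. Prdx2 in sham early library 3 measured 74.73 FPKM, above the 66.86 to 67.88 of the others.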

How the results depend on the processing

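Across 10 genes, 10 comparisons and all alternatives, 1675 values kept their direction and their side of the threshold, 9 passed newly, 4 no longer passed and 72 changed direction. By the median of gene ratios Prdx1 under vehicle turned to -0.066, and Prdx2 to -0.158, -0.288 and -0.417 under vehicle, early and late course. Of differences that never passed, that scaling turned Cat in UUO late against UUO vehicle to -0.0292, Prdx3 in UUO early against UUO late to 0.0493, Gpx4, Prdx2 and Prdx6 in sham early against sham vehicle to 0.0306, 0.0326 and 0.0127, Prdx5 and Prdx6 in sham late to 0.0821 and 0.151, and Prdx5 in the early interaction to -0.0509. Scaling to equal sums turned Gpx1 in UUO late against sham late to 0.017, Gpx3, Prdx2 and Prdx3 in UUO late against UUO vehicle to 0.0371, 0.0267 and 0.00318, Prdx2 in sham late to -0.0367, Gpx6 in the early interaction to 0.00414, and Prdx2 and Prdx6 in the late interaction to 0.0634 and 0.04. The cause was not tested.

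With only the groups compared, 1 member in place of 0 passed in UUO early against UUO vehicle, Gpx1, and Prdx2 no longer passed under vehicle (adjusted p = 0.055), while Gpx1 and Prdx1 passed as lower in UUO early against sham early (limma adjusted p = 0.0164 and 0.0318). Leaving out 1 library gave 7, 8 and 7 to 9 called members in the obstruction comparisons and 0 in all others. Prdx2 in UUO late lost its call without sham late library 4 or UUO late library 4 (limma adjusted p = 0.0645 and 0.0512), and Prdx1 passed as lower without sham late library 2 or UUO late library 3 (limma adjusted p = 0.0222 and 0.0471).

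Leaving out 1 library turned these, none of which passed, over the following log2 ranges. Against sham late, Gpx1 in UUO late ranged from -0.593 to 0.406. In UUO early against UUO vehicle Gpx3 ranged from -0.326 to 0.74, Gpx6 from -0.00409 to 0.93, Prdx3 from -0.14 to 0.0229 and Cat from -0.326 to 0.272. In UUO late against UUO vehicle Gpx3 ranged from -0.39 to 0.225, Prdx3 from -0.127 to 0.0204 and Cat from -0.149 to 0.292. In UUO early against UUO late the ranges were -0.3 to 0.765 for Gpx3, -0.0849 to 0.0817 for Prdx3 and -0.381 to 0.242 for Cat. In sham early Prdx2 ranged from -0.0986 to 0.000655. In sham late the ranges were -0.154 to 0.615 for Gpx1, -0.0389 to 0.22 for Gpx6, -0.0362 to 0.0631 for Prdx2 and -0.0447 to 0.0379 for Prdx6. In the early interaction they were -0.362 to 0.572 for Gpx6, -0.0942 to 0.0051 for Prdx2, -0.0909 to 0.179 for Prdx5 and -0.444 to 0.153 for Cat, and in the late interaction -0.0983 to 0.000961 for Prdx2 and -0.399 to 0.0424 for Cat.

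No comparison met the mark set for pairing by replicate number, all 4 correlations of same-numbered deviations above 0.1. The correlations ran from -0.11 to 0.44. UUO early against UUO late came nearest, with 3 of 4 pairs above 0.1 and 3 of 4 libraries most like the one of their own number. Whether such libraries shared a batch was not tested. With the replicate number as a block, 7, 8 and 8 members were called in the obstruction comparisons and 0 in the others. The counts over all genes in the drug comparisons were small and moved by more than 1.5 times under several alternatives. Apart from leaving out libraries, they ran from 0 to 6 for UUO early and 3 to 27 for UUO late against UUO vehicle. For UUO early against UUO late they ran from 1 to 11. Against sham vehicle they ran from 0 to 7 for sham early and 84 to 400 for sham late. For the interactions they ran from 0 to 2 (early) and 3 to 43 (late). Leaving out 1 library gave 0 to 8, 2 to 31 and 4 to 13 in the comparisons of obstructed kidneys, in the same order. It gave 1 to 3 for sham early and 30 to 168 for sham late. For the early and late interactions it gave 1 to 4 and 1 to 90.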

Other observations

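The gene and transcript tables did not always vary alike. Prdx6 measured 42.1 to 50.2 FPKM as a gene in the sham vehicle libraries, while its main transcript Prdx6-202 was listed at 9.52 to 60.7 FPKM in the same libraries. Prdx5 was carried mainly by Prdx5-201 and Prdx5-203, which held 47.8% and 50.2% of its listed transcript FPKM in sham vehicle and 71.6% and 26.1% in sham early libraries. Cat, Prdx3 and Gpx6 each came almost whole from 1 transcript, with 99.4 to 99.7% for Cat-201 across groups.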
